A study of Mus musculus with 12 samples.

Results

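The nuclear genes of the oxidative phosphorylation machinery were followed in peritoneal exudate cells, the mixed leukocytes and shed lining cells rinsed from the mouse abdominal cavity with cold PBS. Members were every non-control probe whose gene name on the array began with Nduf followed by a, b, c, s or v and a number, was Sdha, Sdhb, Sdhc or Sdhd, or began with Uqcr, with Cox followed by a digit from 4 to 8, or with Atp5. Atp5o and Atp5j were left out because they lie near the targeted gene Ifnar2. This gave 106 of 41174 probes for 78 of 27670 names, namely 35 genes of complex I, 4 of complex II, 7 of complex III, 18 of complex IV and 14 of complex V. The rule used names only and no measured value. Female mice of 8 weeks on the background given as 129S2/SvPas*BALB/c were either wild type or Ifnar2 -/-, so lacked one subunit of the receptor for type I interferons. They received IFN-β (10000 IU/ml, no volume stated) or PBS into the peritoneal cavity, and cells were collected 3 hours later. The groups were wild type after PBS, wild type after IFN-β, Ifnar2-/- after PBS and Ifnar2-/- after IFN-β, with 3 arrays each from different mice in independent experiments. The design separates responses to the cytokine that require Ifnar2 from those that do not.

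The members build the inner mitochondrial membrane's respiratory chain. Complex I takes electrons from NADH and complex II, which is also succinate dehydrogenase of the citric acid cycle, takes them from succinate. Both pass them to ubiquinone, complex III moves them on to cytochrome c, and complex IV gives them to oxygen. Complexes I, III and IV pump protons, and complex V, the ATP synthase, lets the protons back to make ATP. In macrophages the balance between this respiration and glycolysis is known to shift on activation. Several complex IV subunits exist as isoforms of different genes that are used in different tissues.

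Levels are given as log2 signal after background subtraction, relative to the 75th percentile of the same array, so a value of 0 is the level of that percentile, and levels of different probes are not compared. Between 59.4% and 71.6% of the 43379 spots per array were well above background, with the lowest shares (59.4% to 62.5%) on slide 3, which held Ifnar2-/- arrays 2 and 3 of both treatments and no wild-type array. No slide held both wild-type and Ifnar2-/- arrays after PBS. All 3 wild-type PBS arrays were on slide 1 with wild-type IFN-β array 1, and wild-type IFN-β arrays 2 and 3 were on slide 2. Treatment and slide were thus partly confounded in wild type. Ifnar2 probe A_52_P190405 lay between 4.42 and 4.87 on wild-type PBS arrays and between 2.69 and 2.95 on Ifnar2-/- PBS arrays, whereas probe A_51_P338924 lay between 1.56 and 1.68 and between 2.49 and 2.69. The sources used here do not place either probe inside or outside the deleted stretch. The 15 tested markers of large peritoneal macrophages were each well above background on every array, and their summed level (in units of the array's 75th percentile) was 705 to 965 over the 12 arrays. Such a sum gives most weight to the brightest markers, and some single markers differed between groups, as counted below. The cells were a mixture, so that fewer cells of a type and less RNA per cell cannot be told apart.

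Most members were measured well. Of the 106 probes, 100 exceeded background clearly on each of the 12 arrays, 0 were saturated and 101 were kept for testing, which left 76 of the 78 genes, each by its brightest kept probe. Cox8b and Cox8c, the muscle and testis forms of a small complex IV subunit, were not well above background on any array and were not tested. Cox4i2, the lung form of the regulatory subunit that Cox4i1 encodes in most tissues, was well above background on 7 arrays. The pattern of names also took in genes that are not subunits. Cox4nb is named Emc8 in RefSeq and belongs to a membrane protein complex of the endoplasmic reticulum, and Atp5s is named Dmac2l in RefSeq. Ndufa4, counted here under complex I by its name, is now placed in complex IV.

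In wild-type cells few members were called changed after IFN-β under the main scaling, while much of the transcriptome was. Of 76 members, 4 rose, 1 fell and 71 did not pass limma's test at an adjusted p under 0.05, which makes 6.58% called against 39.4% of all 18276 genes tested (17.6% higher and 21.8% lower). Over members the median change was 0.11 on the log2 scale, and over all genes it was -0.04. The median size of the change, whatever its sign, was 0.15 for members and 0.42 for all genes, and the median standard error was 0.13 and 0.19. For 73 of 76 members the 95% confidence interval of the change lay within 2-fold in either direction, against 54.7% of all genes, and for 62 members (81.6%) within 1.5-fold, against 22.4%. The values of both groups did not overlap for 21 members, where 53.7% of all genes had no overlap. By limma 13 of 76 members had an unadjusted p under 0.05, as did 8557 of all 18276 genes. The count that rose was 2 without wild-type PBS array 1, wild-type PBS array 3 or wild-type IFN-β array 2, 11 without wild-type PBS array 2, and 7 without Ifnar2-/- IFN-β array 3. The count that fell was 2 without Ifnar2-/- IFN-β array 2 and 4 without Ifnar2-/- IFN-β array 3. Within slide 1, with 1 IFN-β array against 3 PBS arrays, the median change was 0.09 over members and -0.08 over all genes.

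Both the number of members called and their direction depended on how arrays were scaled. Quantile normalization gave 1 member higher and 24 lower, with a median of -0.25 against -0.13 over all genes. With no scaling 1 was higher and 4 lower, with medians of -0.06 and -0.21. Between the main setting and no scaling, members therefore stayed above the median of all genes, and under quantile normalization they lay below it. The 95th percentile of the tested genes was between 4.64 and 4.70 on the wild-type IFN-β arrays and between 4.25 and 4.47 on the other arrays, which is the range where many members lie. The part of this difference in the quantile result was not tested. Shares of all genes called are given here for the main setting only. Whether members were called less often than all genes under the other settings is therefore not shown.

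**Figure D1:**
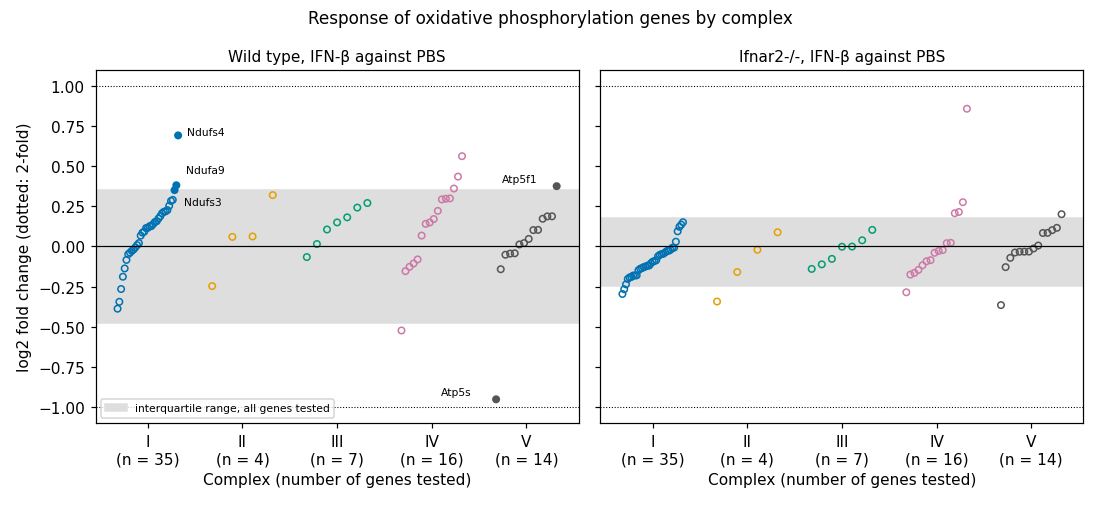
Log2 fold change of each tested member after IFN-β against PBS, by complex, in wild type (left) and Ifnar2-/- (right). Filled points passed limma's test (adjusted p under 0.05), the grey band is the interquartile range of all genes tested and dotted lines mark 2-fold. In wild type the filled points are Ndufs4, Ndufa9, Ndufs3, Atp5f1 and Atp5s, and no point is filled in Ifnar2-/-.

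The complexes differed little in their medians. The wild-type medians, as log2 fold changes, were 0.12 for complex I, 0.06 for complex II, 0.15 for complex III, 0.16 for complex IV and 0.03 for complex V. Members that passed the test lay in complexes I and V alone, with 3 of 35 higher in complex I and 1 higher and 1 lower of 14 in complex V. The 1 that was lower is Atp5s, counted there by its name only. Of complexes II, III and IV, 0 of 4, 0 of 7 and 0 of 16 passed limma's test. In these complexes 1, 0 and 6 had an unadjusted p under 0.05, as did 8557 of all 18276 genes. The difference between complexes was not tested.

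The start regions of the 5 genes that passed are shown so that the letters near their starts can be read beside their values. Each runs from 250 bases before to 50 bases after the gene start in GRCm38.p6, from RefSeq, read along the gene's strand. They lie at chr13:114388045-114388344 on the minus strand (Ndufs4), chr2:90904672-90904971 minus (Ndufs3), chr6:126849095-126849394 minus (Ndufa9), chr3:105959214-105959513 minus (Atp5f1, Atp5pb in RefSeq) and chr12:69724695-69724994 plus (Atp5s, Dmac2l in RefSeq). Capitals mark every match, on either strand, to the letters searched for NRF1 (GCGCA and GCGC with N between), ETS factors such as GABP (CCGGAAG), YY1 (GCCATNTT), an interferon-stimulated response element (GAAA and GAAA with NN between) or a STAT-type GAS element (TTCNNNGAA), where N is any base.
Ndufs4: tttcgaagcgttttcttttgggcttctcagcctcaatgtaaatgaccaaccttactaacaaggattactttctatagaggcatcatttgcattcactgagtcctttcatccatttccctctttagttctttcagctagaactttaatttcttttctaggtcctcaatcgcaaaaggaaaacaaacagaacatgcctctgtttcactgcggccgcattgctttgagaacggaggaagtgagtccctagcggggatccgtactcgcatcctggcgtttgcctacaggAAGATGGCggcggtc
Ndufs3: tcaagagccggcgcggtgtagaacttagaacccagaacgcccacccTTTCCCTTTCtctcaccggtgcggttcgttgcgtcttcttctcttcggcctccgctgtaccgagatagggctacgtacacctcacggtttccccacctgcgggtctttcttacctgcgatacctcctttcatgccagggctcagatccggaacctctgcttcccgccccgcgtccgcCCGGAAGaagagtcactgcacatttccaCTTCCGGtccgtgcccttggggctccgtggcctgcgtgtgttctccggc
Ndufa9: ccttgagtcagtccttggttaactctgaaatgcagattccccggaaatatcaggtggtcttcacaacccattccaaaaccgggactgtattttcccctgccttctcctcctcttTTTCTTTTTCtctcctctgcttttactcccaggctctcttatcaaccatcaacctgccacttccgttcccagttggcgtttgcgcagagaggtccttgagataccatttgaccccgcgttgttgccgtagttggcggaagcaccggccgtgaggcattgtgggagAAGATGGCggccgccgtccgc
Atp5f1: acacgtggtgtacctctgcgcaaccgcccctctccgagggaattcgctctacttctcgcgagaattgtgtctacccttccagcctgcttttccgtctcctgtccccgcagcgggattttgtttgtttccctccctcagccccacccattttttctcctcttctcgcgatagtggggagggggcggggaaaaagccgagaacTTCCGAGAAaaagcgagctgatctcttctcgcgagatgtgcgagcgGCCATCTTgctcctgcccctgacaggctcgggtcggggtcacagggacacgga
Atp5s: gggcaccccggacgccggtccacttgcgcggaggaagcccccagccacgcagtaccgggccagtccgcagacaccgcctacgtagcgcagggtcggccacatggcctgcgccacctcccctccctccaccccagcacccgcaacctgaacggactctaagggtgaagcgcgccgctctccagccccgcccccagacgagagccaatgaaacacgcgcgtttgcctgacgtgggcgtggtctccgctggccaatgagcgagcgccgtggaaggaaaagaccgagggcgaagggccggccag

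NRF1, GABP and YY1 are textbook activators of nuclear genes for respiration, and the other letters stand for sites through which interferon signalling acts. RefSeq windows were found for 63 of the 78 genes, 67 windows in all. NRF1 letters were in 17 of these 67 (25.4%) and in 4.6% of all 32851 windows, ETS letters in 15 (22.4%) and 8.86%, and YY1 letters in 16 (23.9%) and 6.05%. At least one of these was in 42 of 67 windows (62.7%) and in 17.4% of all, with 22 of 33 in complex I, 3 of 3 in complex II, 3 of 4 in complex III, 4 of 12 in complex IV and 10 of 15 in complex V. The response element's letters were in 2 windows (2.99%, against 3.44% of all), and the GAS letters in 5 (7.46%, against 8.3%). The response element letters were those of Ndufs3, at -204 to -195 from the start, and of Ndufa9, at -136 to -127, both on the strand opposite to the gene. Ndufs4 held YY1 letters alone, 36 to 43 bases after its start, and the Atp5s window held 0 matches. No match overlapped another in these windows. These are matches of letters and say nothing of binding.

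Ndufs4, an accessory subunit of the NADH-oxidising arm of complex I whose loss gives a Leigh-like encephalopathy in mice, rose most. Its probe A_51_P388696 (chromosome 13, 111460869 to 111460928 in mm7, the build in the file headers) lay at 2.73, 2.92 and 2.63 on the wild-type PBS arrays and at 3.51, 3.41 and 3.43 on the wild-type IFN-β arrays. In Ifnar2-/- it lay at 2.89, 3.05 and 2.93 after PBS and at 2.91, 3.18 and 2.76 after IFN-β. The 3 wild-type IFN-β arrays stood above all 9 others. The rise was 1.62-fold (log2 fold change 0.69, SE 0.13, limma adjusted p = 0.00171), and 0.75 within slide 1. In Ifnar2-/- the change was -0.01 (SE 0.13, adjusted p = 0.982). The responses differed by -0.70 (Ifnar2-/- minus wild type, SE 0.18, limma adjusted p = 0.0236), and Ndufs4 was the 1 member of 76 (1.32%) with a called difference, where 17.8% of all genes had one. That difference missed the threshold without wild-type PBS array 1 or 3, wild-type IFN-β array 1, Ifnar2-/- PBS array 2 or Ifnar2-/- IFN-β array 1, at -0.68, -0.63, -0.67, -0.65 and -0.68, and with slide as a block, at -0.76 (adjusted p = 0.0871). It was also lost without the slide 3 arrays (-0.68, adjusted p = 0.158), without the dim filter (-0.70, adjusted p = 0.0624), under quantile normalization (-0.44, adjusted p = 0.138) and with no scaling (-0.42, adjusted p = 0.229), so that 12 of 22 other settings kept it. The rise in wild type itself passed under all 22 other settings, at 0.37 to 0.77.

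Ndufs3 and Ndufa9 rose less. Ndufs3 is a core subunit of the arm that hands electrons to ubiquinone, and Ndufa9 is an accessory subunit close to the quinone site. Ndufs3 (probe A_51_P395014) lay at 4.16, 4.27 and 4.14 after PBS and at 4.46, 4.58 and 4.59 after IFN-β in wild type, with no overlap. Its log2 fold change was 0.35 (SE 0.11, limma adjusted p = 0.0273), and its Ifnar2-/- values were 4.43, 4.40 and 4.49 after PBS and 4.26, 4.51 and 4.19 after IFN-β. Ndufa9 (probe A_51_P280492) lay at 2.55, 2.90 and 2.63 after PBS and at 2.98, 3.16 and 3.08 after IFN-β, again apart. Its log2 fold change was 0.38 (SE 0.12, limma adjusted p = 0.0227). In Ifnar2-/- Ndufa9 lay between 2.65 and 2.79 on all 6 arrays. Both calls were lost without wild-type PBS array 1 or 3 or wild-type IFN-β array 2 or 3, when Ndufs3 lay at 0.33 each time and Ndufa9 at 0.31 to 0.37, and with slide as a block, at 0.26 and 0.29. Under quantile normalization Ndufs3 was at -0.03 and Ndufa9 at 0.09, and with no scaling they were at 0.18 and 0.21. Both were also lost without the dim filter, Ndufs3 with normexp (0.31) and Ndufa9 without the slide 3 arrays. Of 22 other settings each call held in 13.

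The remaining complex I subunits did not pass the test in wild type. Over the 35 genes the wild-type log2 fold changes ran from -0.39 to 0.69, with 24 above 0 and 11 below, and all 35 confidence intervals lay within 2-fold. Ndufa6, an accessory subunit of the LYR family, had the lowest value at -0.39 (SE 0.19, limma adjusted p = 0.142). In Ifnar2-/- the changes ran from -0.30 to 0.15, and 30 of 35 lay below 0. The lowest adjusted p there was that of Ndufa3, at -0.27 (SE 0.12, limma adjusted p = 0.257).

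No complex II gene passed the test. Sdha, the flavin-bearing catalytic subunit, lay at 1.52, 1.53 and 1.77 after PBS and at 1.31, 1.38 and 1.39 after IFN-β in wild type, a log2 fold change of -0.25 (SE 0.14, limma adjusted p = 0.196). Sdhb, the iron-sulfur subunit, changed by 0.06 (SE 0.17, adjusted p = 0.812 by limma). Sdhc and Sdhd anchor the enzyme in the membrane. Sdhc lay at 2.90, 3.14 and 2.88 after PBS and at 3.44, 3.26 and 3.17 after IFN-β, a log2 fold change of 0.32 (SE 0.12) whose limma adjusted p of 0.0591 missed the threshold. Sdhd was at 0.06 (SE 0.13, adjusted p = 0.767 by limma). A second probe of Sdha gave 0.14, so the sign for that gene depended on the probe. In Ifnar2-/- the values were -0.34 for Sdha, -0.16 for Sdhb, -0.02 for Sdhc and 0.09 for Sdhd, of which Sdha had the lowest adjusted p (0.233).

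In complex III the wild-type changes were the narrowest, from -0.07 to 0.27. All 7 confidence intervals lay within 1.5-fold. Uqcrq, a small subunit beside cytochrome b, had the lowest adjusted p, with a log2 fold change of 0.27 (SE 0.13, limma adjusted p = 0.124). The core proteins Uqcrc1 and Uqcrc2 were at 0.18 and 0.24, the Rieske iron-sulfur protein Uqcrfs1 was at 0.11, and the hinge protein Uqcrh was at 0.01. The signs of 6 of the 7 were positive in wild type and those of 5 were negative in Ifnar2-/-. In Ifnar2-/- the lowest adjusted p was that of Uqcrc1, at 0.10 (SE 0.12, limma adjusted p = 0.689).

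Complex IV came closest to the threshold without passing it. Cox5b, a zinc-binding subunit on the matrix side, lay at 5.59, 5.89 and 5.69 after PBS and between 5.99 and 6.07 after IFN-β in wild type. The groups did not overlap, and the log2 fold change of 0.30 (SE 0.11) had a limma adjusted p of 0.0543. Cox7a2, the common form of subunit VIIa, was at 0.36 (SE 0.14, adjusted p = 0.0666 by limma). Cox7a2l, a related protein that takes part in joining complexes III and IV into supercomplexes, had the opposite sign at -0.52 (SE 0.21, adjusted p = 0.0676 by limma). It lay at 3.87, 3.83 and 3.82 after PBS and at 3.36, 3.13 and 3.47 after IFN-β.

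Of the isoform families of complex IV no member passed the test in wild type. Cox4i1 changed by 0.15, Cox6a1 by -0.15, Cox6b1 by 0.07, Cox7b by 0.22 and Cox8a by -0.08 in wild type, each with a limma adjusted p over 0.05. The restricted isoforms Cox6b2 and Cox7a1, known from testis and from muscle, were detected on all 12 arrays and changed by -0.13 and -0.11. Cox4i2 lay between -7.33 and -4.21 on the 12 arrays, near the lowest signal that counted as above background (-6.66 to -5.02), where only 1 of 3 arrays was above background in each wild-type group. Ndufa4 was at 0.13. Of the genes for the proton-carrying ring of complex V, which encode the same mature protein, Atp5g1 was at 0.17, Atp5g2 at -0.14 and Atp5g3 at 0.19, and none of these 3 passed limma's test (adjusted p = 0.561, 0.472 and 0.296).

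Cox6a2 differed between the genotypes. It encodes the heart and muscle form of a complex IV subunit whose common form is Cox6a1. Its probe A_51_P509997 (chromosome 7, 124302204 to 124302263 in mm7) was well above background on all 12 arrays. In wild type it lay at -3.26, -2.98 and -3.94 after PBS and at -2.88, -2.92 and -2.70 after IFN-β. In Ifnar2-/- it lay at -1.45, -1.84 and -1.69 after PBS and at -0.50, -0.73 and -1.18 after IFN-β. All 6 Ifnar2-/- arrays stood above all 6 wild-type arrays. Mast cell markers were split the same way, since the summed level of all 11, each well above background on every array, was 295 to 369 on Ifnar2-/- arrays and 179 to 285 on wild-type arrays. Of these 11, 2 were higher in Ifnar2-/- after PBS and 9 after IFN-β, where 2.85% and 21.3% of all genes were higher. The summed level of 14 T and NK cell markers was 11.7 to 19.9 in Ifnar2-/- and 8.76 to 12.8 in wild type, with 0 higher after PBS and 8 after IFN-β. Of 8 dendritic cell markers 2 were higher and 1 lower after PBS, and 4 higher and 1 lower after IFN-β, with overlapping sums. Of 6 eosinophil markers 1 was lower after PBS and 2 after IFN-β, and 0 were higher. Of 10 mesothelial and stromal markers 1 was lower after PBS, and after IFN-β 1 was higher and 4 lower. Of 8 monocyte markers 1 was higher after PBS, and after IFN-β 1 was higher and 6 lower. Of 15 large peritoneal macrophage markers 1 was higher after PBS, and after IFN-β 3 were higher and 4 lower. Of 13 B cell markers 0 were called after PBS, and after IFN-β 4 were higher and 1 lower. Of 13 neutrophil markers 2 were lower after PBS, and after IFN-β 1 was higher and 1 lower. Of 4 erythroid markers 0 were called. Of all genes 2.04% were lower after PBS and 17.2% after IFN-β. The part of any of these cells in the Cox6a2 values was not tested. After PBS the level was 3.33-fold higher in Ifnar2-/- (log2 difference 1.73, SE 0.25, limma adjusted p = 0.00239), and after IFN-β it was 4.08-fold higher (2.03, SE 0.25, adjusted p = 0.000103). The difference after IFN-β was 2.31 within slide 2. After PBS no slide holds both genotypes, and the difference missed the threshold with slide as a block (1.93, adjusted p = 0.26) or without the slide 3 arrays (1.95, adjusted p = 0.0614), where 1 Ifnar2-/- array was left. The response to IFN-β was 0.56 in wild type (SE 0.25, adjusted p = 0.0964) and 0.86 in Ifnar2-/- (SE 0.25, adjusted p = 0.118), and without wild-type PBS array 2 the former was 0.77 and passed the test. The difference between them was 0.30 (SE 0.35, adjusted p = 0.647).

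Its neighbours did not all share the difference. Of the 8 tested genes nearest to Cox6a2 in RefSeq gene order, 1 passed limma's test between genotypes after PBS, where 4.88% of all genes did, and 3 after IFN-β, a share near the 38.4% of all genes. The adjacent gene 9130023H24Rik was higher in Ifnar2-/- by 0.45 (SE 0.09, adjusted p = 0.0203) after PBS and by 0.41 (adjusted p = 0.00525) after IFN-β. On the other side Itgax, the CD11c integrin gene, was at 0.63 (adjusted p = 0.245) after PBS and higher by 1.40 (adjusted p = 0.00281) after IFN-β. Pycard, an inflammasome adaptor, was lower after IFN-β, at -0.69. The strain label names a mixed background, and the part of strain sequence around Cox6a2 in these values was not tested.

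**Figure D2:**
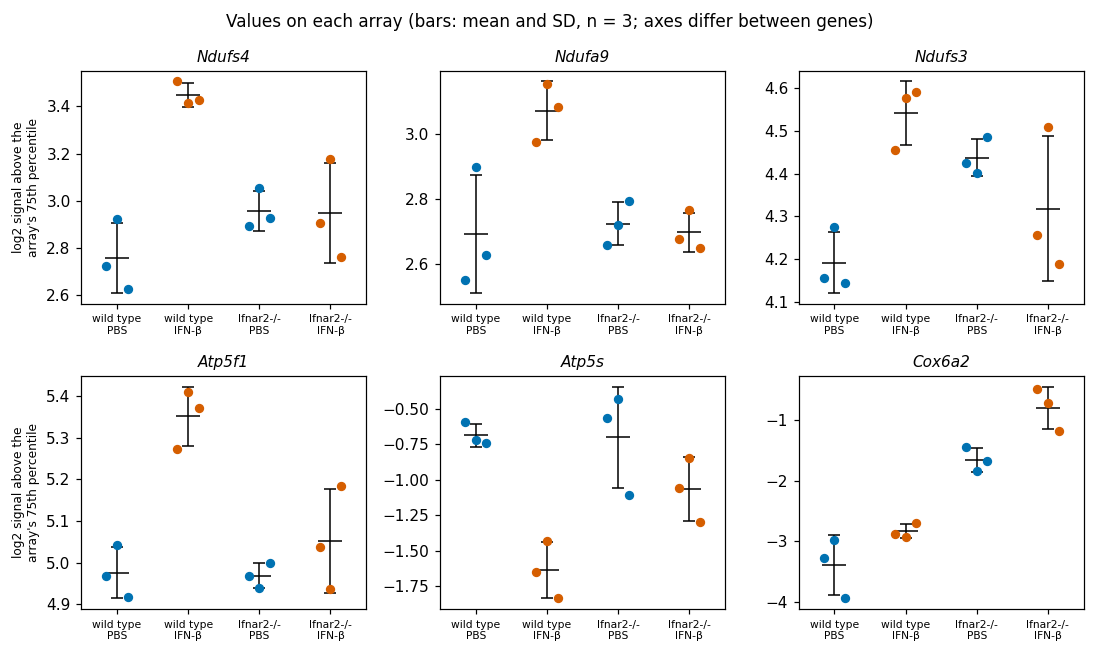
Log2 signal above the array's 75th percentile on each of the 12 arrays for 6 members, with the mean and SD of each group (n = 3) and PBS in blue, IFN-β in orange. For Ndufs4 the wild-type IFN-β arrays lie between 3.41 and 3.51, above all others, and for Cox6a2 all Ifnar2-/- arrays lie between -1.84 and -0.50, above all wild-type arrays.

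Among the genes counted under complex V by name, 1 subunit rose and Atp5s, which is not a subunit, fell. Atp5f1 encodes subunit b of the stalk that holds the catalytic head still. It lay at 4.97, 5.04 and 4.92 after PBS and at 5.27, 5.41 and 5.37 after IFN-β in wild type, with a log2 fold change of 0.38 (SE 0.10, limma adjusted p = 0.0128). In Ifnar2-/- it lay at 4.97, 4.94 and 5.0 after PBS and at 5.04, 4.94 and 5.18 after IFN-β. The call was lost with slide as a block (0.30, adjusted p = 0.197), with no scaling (0.21) and with the mean of its probes (0.28), and turned to -0.07 under quantile normalization. Atp5a1 and Atp5b, the subunits of the catalytic head, were at 0.10 and 0.01 in wild type, and Atp5c1, the rotating central stalk, was at 0.02. These 3 did not pass limma's test (adjusted p = 0.508, 0.945 and 0.936).

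Atp5s, which encodes a factor linked with the ATP synthase by name and not a subunit of it, fell. Its probe A_51_P192654 (chromosome 12, 67685525 to 67685584 in mm7) lay at -0.59, -0.72 and -0.74 after PBS and at -1.65, -1.43 and -1.83 after IFN-β in wild type. In Ifnar2-/- it lay at -0.56, -0.43 and -1.11 after PBS and at -1.06, -0.84 and -1.30 after IFN-β, so these groups overlapped. The fall in wild type was 1.93-fold (log2 fold change -0.95, SE 0.19, limma adjusted p = 0.00249) and passed under all 22 other settings, at -1.12 to -0.60. The change in Ifnar2-/- was -0.37 (SE 0.19, adjusted p = 0.336), and the difference between the responses was 0.59 (SE 0.27, adjusted p = 0.171). The second probe of the gene, A_52_P195798, gave -0.25 in wild type (SE 0.18, adjusted p over all probes 0.314).

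In Ifnar2-/- cells 0 of 76 members rose and 0 fell after IFN-β by limma, where 1.13% of all genes were called (0.925% higher and 0.208% lower). An unadjusted p under 0.05 was found for 3 of 76 members and for 3353 of all 18276 genes. The median was -0.05 for members and -0.05 for all genes. The values of both groups did not overlap for 9 members, against 23.4% of all genes. The confidence interval lay within 2-fold for 74 members. The medians by complex were -0.10, -0.09, -0.00, -0.03 and -0.02 from complex I to complex V. In complex V the lowest adjusted p was that of Atp5b, at 0.20 (SE 0.10, adjusted p = 0.334). Over members the median was 0.03 within slide 2 and -0.09 within slide 3, and without Ifnar2-/- IFN-β array 3 it was 0.03, so its sign rested on that array.

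The difference between the responses had a median of -0.15 over members and 0.03 over all genes. Of 76 members 58 lay below 0, and the count called was the 1 already given, Ndufs4, among the lower ones. Of all genes 8.68% were called higher and 9.09% lower. Besides it, the lowest adjusted p in each complex was that of Sdhc (-0.34, adjusted p = 0.218), Uqcrc2 (-0.24, 0.435), Cox5b (-0.44, 0.0781) and Atp5s (0.59, 0.171). The median was -0.07 without Ifnar2-/- IFN-β array 3 and 0.19 under quantile normalization (all genes 0.11).

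Ifnar2-/- IFN-β array 3 had the lowest member median of the 12 arrays. Over the 76 members the array medians were 4.22, 4.51 and 4.28 in wild type after PBS and 4.44, 4.57 and 4.41 after IFN-β, and 4.39, 4.35 and 4.40 in Ifnar2-/- after PBS and 4.38, 4.44 and 4.17 after IFN-β. Array 3 of the last group was the lowest within complexes I, II, IV and V. The next lowest median, 4.22, was that of wild-type PBS array 1. These arrays also had the highest summed level of 13 tested neutrophil markers, 266 and 136 in units of the array's 75th percentile, against 24.3 to 98.0 on the other 10 arrays. Those 10 arrays come from all 4 groups, so differences between groups enter any comparison of sums and medians across them. Wild-type PBS array 3, at a median of 4.28, had the lowest sum of the wild-type arrays. Ifnar2-/- IFN-β array 2, at a median of 4.44, had the sum of 98.0. The wild-type IFN-β arrays had both higher sums and higher medians than the Ifnar2-/- PBS arrays. Of the neutrophil markers 9 were well above background on all arrays. Summed levels of 8 monocyte markers were 439 to 505 on the wild-type IFN-β arrays and 132 to 189 on the other arrays, and 6 of the 8 rose in wild type. In the same comparison 5 of 13 B cell markers fell, and of 14 T and NK cell markers 2 rose and 7 fell. Of 15 large peritoneal macrophage markers 2 rose and 3 fell. Of all genes 17.6% rose and 21.8% fell there. More cells of a type and more marker RNA per cell cannot be told apart in these sums. The part of these cells in the members' values was not tested.

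**Figure D3:**
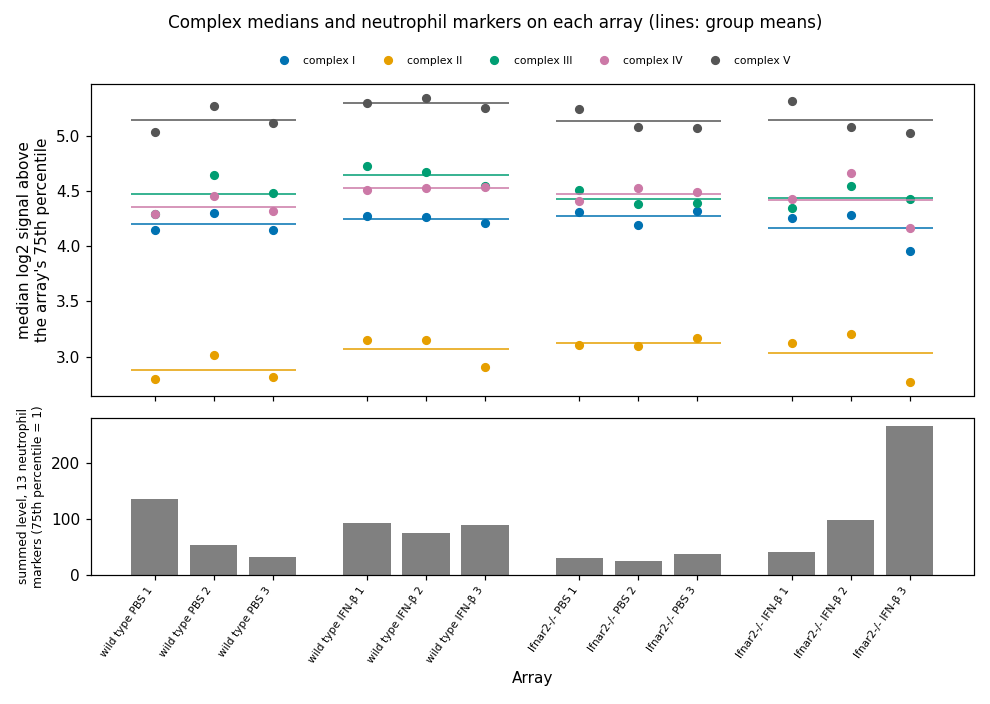
Top, median log2 signal above the array's 75th percentile over the tested genes of each complex on each array, with lines for the group means; the height of one complex against another has no meaning, since probes differ. Bottom, summed level of 13 neutrophil markers, highest on Ifnar2-/- IFN-β array 3 (266) and wild-type PBS array 1 (136), the arrays with the lowest medians over all members. Wild-type PBS array 3, with the next lowest median, had the lowest sum of the wild-type arrays.

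Without added IFN-β, members differed little between the genotypes. After PBS 1 of 76 members (1.32%) was higher in Ifnar2-/-, namely Cox6a2, and 0 were lower. By limma 4.88% of all genes were called (2.85% higher and 2.04% lower). An unadjusted p under 0.05 was found for 5 of 76 members and for 3699 of all 18276 genes. The median difference was 0.06 over members and 0.01 over all genes. The values of the genotypes did not overlap for 12 members, against 29.1% of all genes. The lowest adjusted p in the other complexes was that of Ndufb10 (0.32, adjusted p = 0.125), Sdhb (0.32, 0.315), Uqcrb (-0.24, 0.287) and Atp5g2 (-0.25, 0.348). Cox4i2 was at 1.63 (SE 0.58, adjusted p = 0.156), with 1 of 3 wild-type and 3 of 3 Ifnar2-/- arrays well above background.

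After IFN-β 2 members were higher and 6 lower in Ifnar2-/- than in wild type (10.5%, against 38.4% of all genes by limma, 21.3% higher and 17.2% lower). The values did not overlap for 20 members, against 46.8% of all genes. This comparison shares its wild-type arrays with the wild-type response. Besides Cox6a2, Atp5s was higher by 0.57 (SE 0.19, adjusted p = 0.0351). The lower members in complex I were Ndufs4 at -0.50 (adjusted p = 0.0113), Ndufa1, a small subunit needed for assembly, at -0.46 (adjusted p = 0.0447) and Ndufa9 at -0.38 (adjusted p = 0.0252). The others were Uqcrb of complex III at -0.40 (adjusted p = 0.0253), Cox5b of complex IV at -0.36 (adjusted p = 0.0247) and Atp5f1 of complex V at -0.30 (adjusted p = 0.0378). In complex II the lowest adjusted p was that of Sdhc, at -0.16 (adjusted p = 0.31). Uqcrb lay at 4.70, 4.62 and 4.55 in wild type and at 4.35, 4.26 and 4.07 in Ifnar2-/-, with no overlap. Of 22 other settings, the call of Cox6a2 held in 22, that of Ndufs4 in 18, Atp5s in 14, Ndufa9 in 13, Cox5b and Uqcrb in 12 each, Atp5f1 in 6 and Ndufa1 in 5. With slide as a block or without the slide 3 arrays 0 members were lower, without wild-type IFN-β array 1, 2 or 3 the count was 2, 1 and 3, and without Ifnar2-/- IFN-β array 3 it was 2. The median was -0.08 over members (all genes 0.08), and 0.04 within slide 2 (all genes 0.03). Quantile normalization gave 17 higher and 0 lower, and no scaling gave 23 higher and 0 lower with a median of 0.30 (all genes 0.46). The share of all genes called under these settings is not given here.

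**Figure D4:**
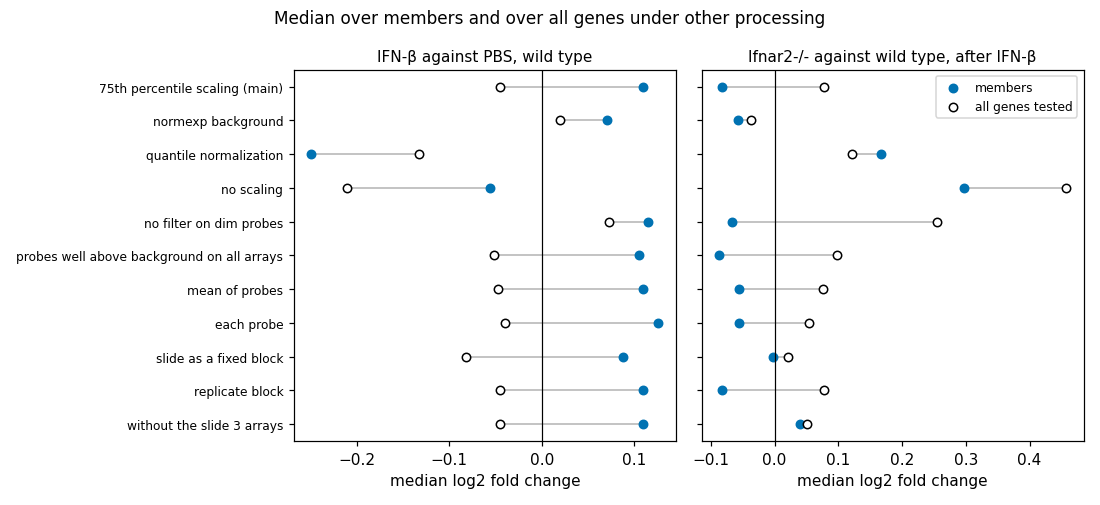
Median log2 fold change over the members (filled) and over all genes tested (open) under each way of processing, for IFN-β against PBS in wild type (left) and Ifnar2-/- against wild type after IFN-β (right). On the left the members lie to the right of all genes in each row but that of quantile normalization, where the medians are -0.25 and -0.13.

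Probes of one gene mostly gave the same answer. Of 24 genes with several member probes 21 had several kept ones, and for 15 of these the wild-type log2 fold changes of a gene's probes spanned less than 0.2. For 4 the span was over 0.5, and in 0 genes did probes pass in opposite directions. The wide spans were those of Atp5s, Ndufa3, Ndufb8 and Cox4nb. For Ndufa3 the brighter probe gave 0.13 and probe A_51_P431772 (chromosome 7, 3240804 to 3240863 in mm7) gave -0.58 (SE 0.13, limma adjusted p over all probes 0.00459). The latter lay at -3.19, -3.42 and -3.29 after PBS and at -3.71, -3.98 and -3.95 after IFN-β, without overlap. For Ndufb8 the brighter probe gave -0.02 and probe A_52_P252539 (chromosome 19, 44442601 to 44442660) gave -0.54 (SE 0.12, adjusted p 0.00371). For Cox4nb the brighter probe gave 0.30 and probe A_52_P655982 (chromosome 8, 119290909 to 119290968) gave -0.82 (SE 0.13, adjusted p 0.000522). In the array's annotation the dimmer probes of Ndufa3 and Ndufb8 are assigned to clone sequences and their brighter probes to RefSeq transcripts. Values of the dimmer probes therefore need not be those of the RefSeq transcripts. Where these probes lie relative to exons and introns was not analysed here, as no annotation of that build was used.

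**Figure D5:**
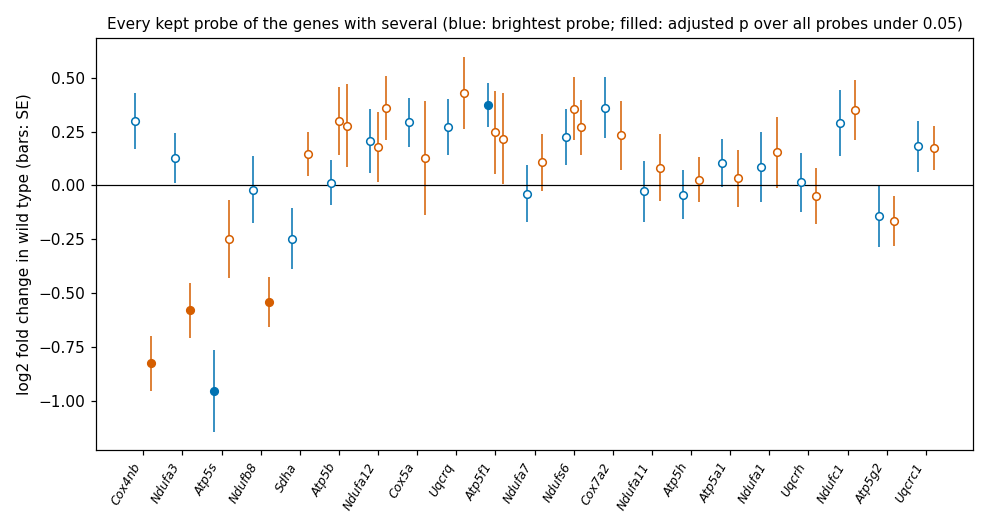
Wild-type log2 fold change with SE for every kept probe of the 21 genes with several, ordered by the span between a gene's probes; blue marks the brightest probe and filled points have an adjusted p under 0.05 over all probes. For Cox4nb, Ndufa3 and Ndufb8 the dimmer probe lies at -0.82, -0.58 and -0.54 while the brightest is at 0.30, 0.13 and -0.02.

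The helpers that assemble the complexes were called more often than the subunits, at a share near that of all genes. Of 46 assembly factors tested 11 rose and 9 fell in wild type by limma (43.5%, against 39.4% of all genes). Complex IV had 9 of 19 higher and 3 lower, complex I had 2 of 13 higher and 1 lower, complex II had 1 of 4 lower, complex III had 4 of 6 lower and complex V had 0 of 4 called. The median was 0.24 for the complex IV factors, -0.44 for those of complex III and -0.04 for those of complex V. The complex IV split was 8 higher and 5 lower under quantile normalization, 5 and 3 without scaling and 4 and 2 with slide as a block, which left 0 of the complex III factors called. The difference in share between subunits and assembly factors was not tested.

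Sco1, which delivers copper to complex IV, rose by 1.67 on the log2 scale (SE 0.12, limma adjusted p = 3.1e-06), and Cox18, which inserts its COX2 subunit into the membrane, rose by 1.52. Surf1 and Coa6, also for complex IV, fell by 0.89 and 0.69. Foxred1 and Ndufaf6 of complex I rose by 1.15 and 0.53, and Ndufaf7 fell by 0.71. The call of Ndufaf6 was lost with slide as a block (0.50) and with no scaling (0.37). Sdhaf1 of complex II fell by 0.74, and Lyrm7 and Uqcc3 of complex III fell by 1.25 and 0.65, Lyrm7 at -0.23 with normexp background correction, where its call was lost. With slide as a block Lyrm7 (-1.13) and Uqcc3 (-0.56) missed the threshold. In Ifnar2-/- 0 of these 46 assembly factors passed the test, where 1.13% of all genes did. The difference between responses was called for Sco1 (-1.36, adjusted p = 0.0004), Cox18 (-1.33, adjusted p = 0.000171), Foxred1 (-1.28, adjusted p = 0.000538) and Sdhaf1 (0.91, adjusted p = 0.00239), each also under all 21 other settings that fit 1 value per gene. That for Coa6 (0.51, adjusted p = 0.0412) held in 6 of the 21 settings.

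Mobile carriers and quinone enzymes split evenly, with 6 of 20 higher and 6 lower in wild type, where 17.6% and 21.8% of all genes were (4 and 8 under quantile normalization, 3 and 6 unscaled, 3 and 3 with slide as a block). Cycs, the cytochrome c that links complexes III and IV, rose by 1.94 (SE 0.15, limma adjusted p = 4.55e-06), and Pdss1, which makes the tail of ubiquinone, rose by 2.47 (SE 0.18, adjusted p = 2.44e-06). Coq10a and Coq8a, which handle ubiquinone, fell by 1.68 and 1.36, Coq10a by 0.42 with normexp. The responses of Cycs (-1.31, adjusted p = 0.00191), Pdss1 (-1.80, adjusted p = 0.000644) and Coq10a (1.28, adjusted p = 0.0021, or 0.17 and not called with normexp) differed between genotypes, while that of Coq8a was 0.64 with an adjusted p of 0.209. Of the citric acid cycle and pyruvate dehydrogenase genes 2 of 19 rose and 1 fell, where 39.4% of all genes were called. Idh3a, a subunit of isocitrate dehydrogenase, rose by 0.70 and Dld, a shared subunit of pyruvate and oxoglutarate dehydrogenases, by 0.52, and Idh3g fell by 0.43. The call of Dld was lost without wild-type PBS array 1 (0.49) or wild-type IFN-β array 1 (0.48), under quantile normalization (0.33), unscaled (0.36) and with slide as a block (0.61). That of Idh3a was lost with slide as a block (0.62) and with no scaling (0.53), and that of Idh3g with slide as a block (-0.31). Under quantile normalization 1 of the 19 was higher and 4 lower, unscaled 0 and 2, and with slide as a block 0 and 0.

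Protein import into mitochondria had 9 of 22 genes higher and 2 lower, where 17.6% and 21.8% of all genes were (5 and 5 under quantile normalization, 3 and 3 unscaled, 3 and 1 with slide as a block). Tomm70a, an outer membrane receptor, rose by 1.69 (SE 0.14, limma adjusted p = 5.76e-06) and Timm23, the inner membrane channel, by 1.10, whereas Timm17b and Timm8b fell by 0.53 and 0.41. Timm8b missed the threshold without wild-type PBS array 2 (-0.39) or wild-type IFN-β array 3 (-0.36), with the mean of its probes (-0.36) and with slide as a block (-0.37). Regulators of mitochondrial biogenesis had 2 of 16 higher and 5 lower, a total near the 39.4% of all genes (3 and 6 under quantile normalization, 0 and 6 unscaled, 0 and 3 with slide as a block). Among them Yy1, whose letters were searched in the windows, fell by 1.04 (SE 0.17, limma adjusted p = 0.00079) and Tfb2m, a mitochondrial transcription factor, by 0.73, while Pprc1, a coactivator related to PGC-1, and Tfb1m rose by 0.65 and 0.56. Pprc1 also rose in Ifnar2-/-, by 1.04 (SE 0.19, adjusted p = 0.034), though not without Ifnar2-/- PBS array 1, 2 or 3 (0.98, 1.02 and 1.13) or the slide 3 arrays (0.90). At the same 1.04, that call was also lost without the dim filter (adjusted p = 0.0906), with slide as a block (adjusted p = 0.052) and without wild-type PBS array 1 or 2 or any 1 wild-type IFN-β array (adjusted p = 0.0531 to 0.0589). The wild-type call of Pprc1 was lost without wild-type PBS array 1 or 2 or wild-type IFN-β array 2 or 3 (0.61, 0.61, 0.60 and 0.63), and at 0.46 to 0.51 under slide blocking, quantile normalization or no scaling. That of Tfb1m was lost with slide as a block (0.60) and with no scaling (0.40). Of coupling and carrier genes 1 of 11 rose (Vdac3, 0.46) and 2 fell (Ucp2 by 0.69 and Higd2a by 0.60), with 0 higher and 6 lower under quantile normalization, where Vdac3 was at 0.08. The calls of Vdac3 and Higd2a were lost with slide as a block (0.45 and -0.55), and that of Vdac3 with no scaling (0.29). No tested gene bore any of the 26 names searched for subunits encoded by the mitochondrial genome, so those subunits were not analysed here.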

How the data were processed

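Total RNA of peritoneal exudate cells was labelled with Cy3 from 0.2 µg and hybridised, 1 sample each, to 12 Agilent mouse arrays read in 1 colour, per the labels' protocols. Per the file headers, Agilent Feature Extraction 9.5.3.1 subtracted background, so the deposited processed signal, mean signal and background are intensities on a linear scale, not normalized between arrays. The deposited value table held the same intensities (0 of 540216 values differed beyond rounding, column medians 50.7 to 77.6) and was not analysed apart.

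From these, log2 of the processed signal minus each array's 75th percentile over non-control spots was taken, outlier spots were left out and spots of a probe averaged. A probe was kept if some group had it well above background on each array and at least 6 arrays gave a value (27718 probes), and each gene was given by its brightest probe (18276 genes). Probes were named through RefSeq GRCm38.p6 (22951 by accession, 6659 by symbol, 3109 by older symbol, 8455 by file name). limma 3.58.1 in R 4.3.3 fitted 4 group means, with 8 residual and 2.38 prior degrees of freedom, two-sided tests and Benjamini-Hochberg adjustment over all genes; with 3 arrays a group, their number limits the precision. A simulation of 18276 genes had 200 changed. Its wild-type comparison recovered 64% of changes of size 1 and 90% of size 2 on the log2 scale, with 8 false calls. In the data 7205 genes were called in that comparison, so these recovery rates need not hold there. Same-numbered arrays of different groups (18 pairs) correlated in their deviations at -0.12 to 0.51, with 5 above 0.1. Among these were the 3 pairs of Ifnar2-/- PBS and IFN-β arrays (0.513, 0.187 and 0.104), each on 1 slide. Pairs with different numbers (36) correlated at -0.40 to 0.24, with 7 above 0.1. In the Ifnar2-/- pairs number and slide cannot be told apart, so pairing by number was not established. The fit without the block was kept as the main one. With replicate number as a block 0 members were likewise called there. Alternatives were normexp (offset 50), quantile, no scaling, other probe filters and summaries, slide or replicate number as a block, and leaving out each array or slide 3.

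Named were, for each comparison and complex, up to 3 members a direction with the largest change among those passing, else the member of lowest adjusted p; also all Sdh genes, the isoform families, dim members, genes whose probes disagreed, and up to 2 genes a direction from each other list. Other subunits, the pair of probes of disagreeing genes and stability of calls are given as descriptions chosen after their values were seen. The members and lists were chosen with earlier results of these data known.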

Additional observations from a re-analysis of the deposited data

Results flagged for a closer look

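These results stood out because the response to IFN-β differed between wild type and Ifnar2-/- by a test of the difference itself (limma, Ifnar2-/- response minus wild-type response). Ndufs4 differed by -0.70 (adjusted p = 0.0236), with all 3 wild-type IFN-β arrays above the other 9 arrays. The other results come from the dimmer probe of a gene, tested with every probe on its own. Probe A_51_P431772 of Ndufa3 differed by 0.79 (adjusted p over all probes 0.0124), where the brighter probe gave -0.39 (adjusted p = 0.138 there). Probe A_52_P252539 of Ndufb8 differed by 0.73 (0.0114), where the brighter probe gave -0.17 (0.662). Probe A_52_P655982 of Cox4nb differed by 0.74 (0.0181), where the brighter probe gave -0.02 (0.957). Both probes of each of these genes were well above background on all 12 arrays. The flagged probes of Ndufa3 and Ndufb8 are assigned to clone sequences in the array's annotation, and the brighter probes to RefSeq transcripts. Which transcript each probe reads was not tested.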

How the results depend on the processing

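In wild type the members rose and fell, in this order, in counts of 1 and 24 under quantile normalization, 1 and 4 with no scaling, 2 and 1 without the filter on dim probes, 1 and 1 with slide as a block, 3 and 2 with normexp, 3 and 3 without the slide 3 arrays, and 4 lower with each probe tested; the median was -0.25 under quantile normalization and -0.0561 with no scaling. Leaving out 1 array gave 2 to 11 higher, 1 to 4 lower and a median of 0.05 to 0.18. In Ifnar2-/- 0 members were called under any setting, with medians of -0.11 to 0.03 when 1 array was left out. For the difference between the responses, quantile normalization gave 2 higher and 0 lower with a median of 0.19, no scaling 0 lower with a median of 0.13, and each probe 3 higher. The count lower was also 0 without the dim filter, with slide as a block or without slide 3, and it was 0 to 2 with 1 array left out, with medians of -0.23 to -0.07. After PBS the count higher in Ifnar2-/- was 0 with slide as a block or without slide 3, and 1 to 2 with 1 array left out (medians 0.0042 to 0.13). After IFN-β the counts higher and lower in Ifnar2-/- were 17 and 0 under quantile normalization, 23 and 0 with no scaling, 1 and 1 without the dim filter and 1 and 0 with slide as a block, with 4 higher under normexp, 4 with probes above background on all arrays and 5 with each probe. Without slide 3 it was 0 lower, and with 1 array left out 1 to 4 higher and 1 to 6 lower. The medians there were 0.17 under quantile normalization, 0.30 with no scaling, 0.0404 without slide 3, 0.0421 within slide 2 and -0.12 to 0.01 with 1 array left out. Among single genes the sign turned under quantile normalization for Atp5f1 (-0.0696), Ndufs3 (-0.033) and Sdhd (-0.34) in wild type and for Atp5f1 (0.0266) between genotypes after IFN-β, and with no scaling there for Atp5f1 (0.0807), Cox5b (0.0172) and Ndufa9 (0.0037). With the replicate block the wild-type counts were 4 higher and 1 lower, and those after IFN-β between genotypes 2 and 4, while the counts of the other comparisons were as without it. These counts have no share of all genes beside them, since that share is given for the main setting only. The cause was not tested.

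Signal over background limits Cox4i2, Cox8b and Cox8c, and 3 arrays a group limit the size of change that can pass. The within-slide comparisons rest on 1 to 3 arrays a group.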
